A study of Mus musculus with 6 samples.

Results

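The genes described here encode the mitochondrial respiratory chain and ATP synthase. They were taken by symbol: every gene named as a subunit or assembly factor of complex I (Nduf), complex II (Sdha to Sdhd), complex III (Uqcr), complex IV (Cox4 to Cox8) or ATP synthase, here called complex V (Atp5), and every mRNA gene of the mitochondrial genome (mt-Nd, mt-Cytb, mt-Co and mt-Atp). Of the 39179 genes listed in each library, 109 symbols matched, 4 named as pseudogenes were left out, and 105 remained. Of these, 92 were nuclear and 13 mitochondrial. Subunits with other symbols, such as cytochrome c1 of complex III (Cyc1), were not included. By complex the nuclear genes comprised 36 of complex I, 4 of complex II, 8 of complex III, 20 of complex IV, 15 of complex V and 9 named after assembly or coupling factors (Ndufaf1 to Ndufaf7, Atp5s and Atp5sl). Ndufa4 and Ndufa4l2, named after complex I, were placed in complex IV, where Ndufa4 is now known to belong.

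The libraries came from liver tumours of C57BL/6 wildtype mice, raised by hydrodynamic injection: a volume large for the animal, given quickly into a vein, drives DNA into hepatocytes. The DNA carried transposons, elements that integrate into chromosomes, and both groups received Myc. In 3 samples Myc was combined with NrasG12V, a form of the Ras family GTPase Nras that stays active, and in 3 with Akt1, a kinase of the growth factor and insulin pathway. The labels gave no age, no time after injection and no promoter, and left unsaid how many animals the samples of a group came from. The p-values bear only on the spread between these samples.

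The respiratory chain passes electrons from NADH and succinate to oxygen through complexes I to IV, while complexes I, III and IV pump protons across the inner mitochondrial membrane. Complex V uses the proton gradient to make ATP. Most subunits are encoded in the nucleus and imported. A small hydrophobic core of complexes I, III, IV and V is made inside the mitochondrion, from mRNAs cut out of long transcripts of the mitochondrial DNA, whereas complex II is wholly nuclear. Hepatocytes, which burn fatty acids and synthesise glucose and urea, are rich in mitochondria.

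Values are CPM, reads of a gene scaled to the same total in every library. The libraries held 17881282 to 27865094 reads, and 3 reads, taken as the upper limit for a gene without reads (counting error only), were 0.108 to 0.168 CPM. Genes were called where limma, fitted on log2(CPM + 1) over all 14365 genes with enough reads, gave a Benjamini-Hochberg adjusted p under 0.05. All log2 differences are Myc/NrasG12V minus Myc/Akt1 on that scale, and folds are ratios of group mean CPM. The groups were far apart as a whole: 4240 genes were lower and 1437 higher in Myc/NrasG12V, and the median over all genes was -0.26. With scaling factors made to centre most genes (TMM) these counts were 2565 and 2331 and the median was 0.00, so the medians of the sets below are also given relative to the median of all genes. The 8 hepatocyte markers, 1 called higher and 1 lower in Myc/NrasG12V, summed to 113585 to 151244 CPM in Myc/NrasG12V and 43727 to 55320 CPM in Myc/Akt1, with Alb at 11.1 ± 1.77% and 3.36 ± 0.442% of reads (SD, n = 3 each). Markers of 3 blood cell lists were higher in Myc/NrasG12V without overlap: 6 erythroid genes, 5 of them called, summed to 273 to 1695 against 47.0 to 92.8 CPM, 7 neutrophil genes, 6 called, to 23.9 to 187 against 1.55 to 2.33 CPM, and 7 macrophage genes, 3 called, to 176 to 317 against 118 to 157 CPM. The 6 T and NK cell genes, 3 called higher and 1 lower, summed to 10.7 to 29.7 against 3.27 to 5.27 CPM, and the 5 bile duct genes, 1 called, to 424 to 968 against 127 to 262 CPM. Sums overlapped between the groups for the 6 endothelial genes (145 to 228 against 165 to 205 CPM), of which 3 were called higher and 1 lower. They also overlapped for the 7 stellate cell and fibroblast genes (372 to 428 against 299.9 to 521 CPM, 1 called higher) and the 4 brown fat genes (18.8 to 29.5 against 19.6 to 29.7 CPM, 1 called lower). The 4 B cell genes stayed at or below 4.44 CPM, the 5 muscle genes at or below 0.764 CPM with Ckm and Myh4 at 0, and the 4 sperm genes at or below 0.0478 CPM. The part of these shifts in the results below was not tested, and in bulk tissue fewer cells of a type and less RNA per cell cannot be told apart.

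Respiratory chain mRNAs were lower in Myc/NrasG12V than in Myc/Akt1 tumours across all 5 complexes and both genomes. Of the 105 genes, 95 had enough reads for the test, and 76 of them were lower in Myc/NrasG12V and 0 higher, by limma adjusted p; among all genes tested 39.5% were called in either direction and 29.5% lower, and among genes whose mean reached 10 CPM 36.8% were called lower. The median log2 difference was -1.05 over the 95 genes, against -0.26 over all genes tested. The Myc/NrasG12V libraries all lay below the Myc/Akt1 libraries for 79 of the 95, a pattern held by 38.0% of all genes, and above them for 2, Cox7a2l and Cox6b2, against 14.8% of all genes. With TMM factors 58 of the 95 were called lower (17.9% of all genes) and 1 higher (16.2% of all genes), and the median lay 0.75 below that of all genes, compared with 0.79 below it without factors.

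Split by genome, 70 of the 88 nuclear genes tested were lower (median -1.02, range -2.18 to 0.38), and 6 of the 7 mitochondrial genes tested (median -1.71, range -1.98 to -1.27). The mitochondrial count rested on few libraries: it was 2 without Myc/NrasG12V replicate 1, 3 without Myc/NrasG12V replicate 2 and 2 with no filter on low values. The median fold by which Myc/Akt1 exceeded Myc/NrasG12V was 2.11 for the nuclear genes and 3.11 for the mitochondrial genes. With TMM factors 53 nuclear and 5 mitochondrial genes were lower. Relative to all genes the nuclear median was -0.76 (-0.71 with TMM factors) and the mitochondrial median -1.45 (-1.40). By complex, 29 of 36 nuclear genes of complex I were lower, with a median of -0.96. All 4 of complex II were lower (median -1.19). In complex III 6 of 8 were lower (median -1.09), in complex IV 12 of 16 (median -0.996), in complex V 13 of 15 (median -1.20) and among the factors 6 of 9 (median -0.94). With TMM factors the complexes had 21, 4, 4, 9, 11 and 4 genes called lower in that order. Relative to all genes the medians of complexes I to V and of the factors were -0.70, -0.93, -0.83, -0.74, -0.93 and -0.68, and with TMM factors -0.66, -0.88, -0.79, -0.69, -0.89 and -0.64. The medians of the complexes lay close to one another, and no test of a difference between complexes was run.

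**Figure D1:**
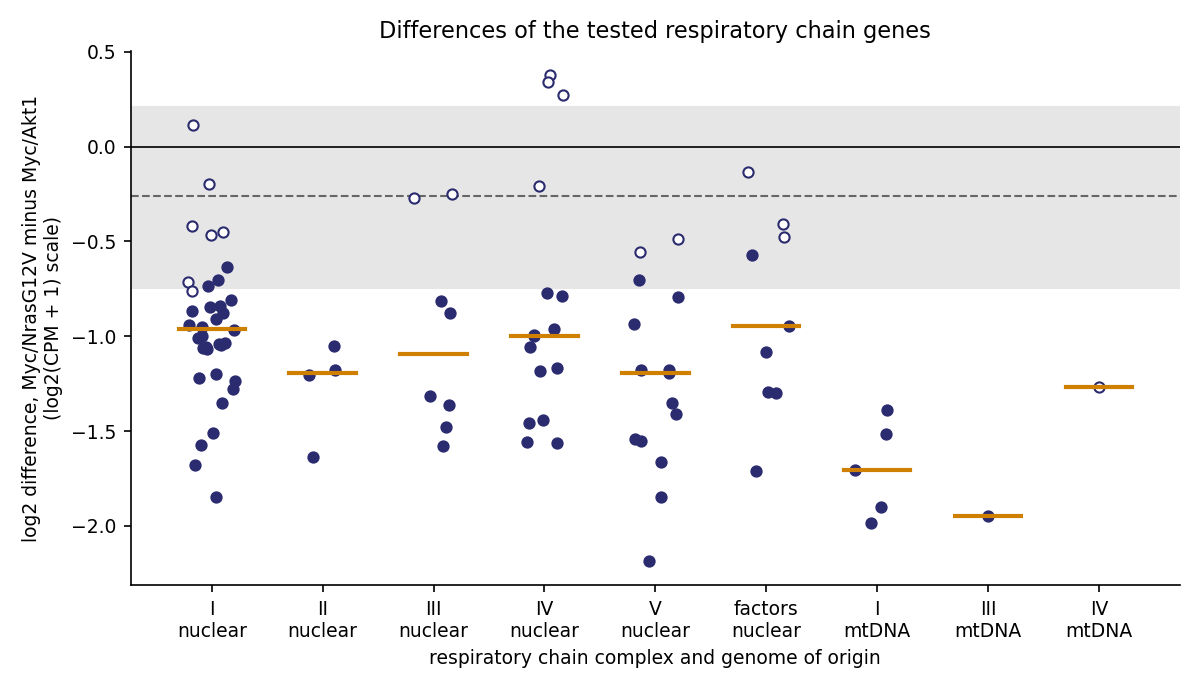
Log2 difference, Myc/NrasG12V minus Myc/Akt1 on the log2(CPM + 1) scale, for each of the 95 tested genes by complex and genome of origin (mtDNA, mitochondrial DNA). Filled points passed limma's adjusted p threshold of 0.05, open points did not, orange bars are medians of each column, the dashed line is the median of all 14365 genes (-0.26) and the grey band the range between their quartiles (-0.75 to 0.21). All filled points lie below 0, and the lowest nuclear point, Atp5j2, is at -2.18.

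The mitochondrial genome gave the most abundant respiratory chain mRNAs. Its 13 mRNA genes together took 1.97, 2.75 and 3.93% of reads in Myc/NrasG12V replicates 1, 2 and 3 and 8.94, 8.42 and 7.53% in Myc/Akt1 replicates 1, 2 and 3. The share was thus 2.88-fold higher in Myc/Akt1, at 8.30 ± 0.716% against 2.88 ± 0.987% (SD, n = 3 each). The spread between libraries was wider in Myc/NrasG12V, with replicate 3 the highest, and the groups did not overlap. Nearly all of these reads came from 7 of the 13 genes. The other 6, described below, had almost none, so the shares may be too low. An exact permutation test of 3 against 3 samples cannot give a p below 0.1, so the sums carry no test.

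Of the mitochondrial genes, mt-Nd5 and mt-Nd6, both encoding subunits of the membrane arm of complex I, had the smallest standard errors. The gene mt-Nd6 (chromosome M, 13552 to 14070, minus strand, GRCm38), the only one of the 13 on that strand, was at 623, 676 and 790.4 CPM in Myc/NrasG12V and 2699, 2571 and 2486 CPM in Myc/Akt1. It was 3.71-fold higher in Myc/Akt1 (log2 difference -1.90, SE 0.22, limma adjusted p = 4.18e-04). The libraries of the groups lay far apart, and the call held in each of the 17 alternatives.

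Its neighbour on the opposite strand, mt-Nd5 (11742 to 13565, plus strand), was at 1575, 1865 and 2116 CPM against 8506, 7783 and 5812 CPM. It was 3.98-fold higher in Myc/Akt1 (-1.98, SE 0.32, limma adjusted p = 0.0019), also in each alternative. The mt-Nd6 reads per mt-Nd5 read were 0.377 ± 0.0168 in Myc/NrasG12V and 0.358 ± 0.0603 in Myc/Akt1 (SD, n = 3 each), and the ratios overlapped between the groups. The 2 genes lie on opposite strands and overlap at their ends. The strand setting of the counting is not given in the sources used here. Reads of the plus strand may thus have been counted for mt-Nd6, and its level is uncertain.

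The other complex I mRNAs of the mitochondrion followed the same order of groups with more spread. For mt-Nd2 the levels were 1831, 2834 and 4113 CPM in Myc/NrasG12V and 8582, 10366 and 8364 CPM in Myc/Akt1 (3.11-fold higher in Myc/Akt1, log2 difference -1.71, limma adjusted p = 0.0107). For mt-Nd4 they were 1709, 2420.4 and 3926 CPM against 6934, 6723 and 8139 CPM (2.71-fold, -1.52, limma adjusted p = 0.0156). In both genes replicate 3 was the highest Myc/NrasG12V library, and the call ended with no filter and without Myc/NrasG12V replicate 1, for mt-Nd4 also without Myc/NrasG12V replicate 2 and with 2 other scaling factors. For mt-Nd1 they were 4325, 5658 and 9195 CPM against 17555, 15203 and 15156 CPM (2.50-fold, -1.39, limma adjusted p = 0.0483), a call that ended in 12 of the 17 alternatives, among them TMM factors and the omission of any library but Myc/NrasG12V replicate 3.

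The mRNA of cytochrome b, mt-Cytb, the only mitochondrial subunit of complex III, was at 3303, 5248 and 7446 CPM in Myc/NrasG12V and 20608, 19861 and 18061 CPM in Myc/Akt1. It was 3.66-fold higher in Myc/Akt1 (log2 difference -1.95, SE 0.49, limma adjusted p = 0.0136), and the call ended with no filter and without Myc/NrasG12V replicate 1, Myc/NrasG12V replicate 2 or Myc/Akt1 replicate 2. The mRNA of the catalytic subunit of complex IV, mt-Co1, was at 6364, 8768 and 11741 CPM against 24556, 21646 and 17251 CPM. The groups did not overlap, but at 2.36-fold (-1.27, SE 0.53) mt-Co1 did not pass (limma adjusted p = 0.0871), except by DESeq2 (adjusted p = 0.00216) and without Myc/NrasG12V replicate 3 (limma adjusted p = 0.0231).

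Among the mitochondrial reads, nearly all of them from the 7 genes tested, mt-Co1 made up 31.3 ± 1.30% in Myc/NrasG12V and 25.4 ± 2.29% in Myc/Akt1. The share of mt-Cytb was 18.3 ± 1.32% and 23.5 ± 0.480% (SD, n = 3 each). The share of mt-Nd1 was 21.97 ± 1.39% against 19.3 ± 1.08%. The libraries of the groups did not overlap for these 3 shares. For mt-Nd2 the share was 10.02 ± 0.643% against 11.01 ± 1.36%.

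The remaining 6 mitochondrial genes were listed with almost no reads: mt-Co2 had 5 over all 6 libraries, mt-Co3 2, mt-Atp6 1, mt-Nd4l 1, and mt-Atp8 and mt-Nd3 0. In GENCODE M21, 5 of these 6 have a nearly perfect annotated copy in a block of mitochondrial sequence inserted in chromosome 1 (24611535 to 24615565, GRCm38). The copies matched mt-Co2 over 681 bases (Gm28661, chromosome 1, 24614885 to 24615565, minus strand), mt-Atp6 over 678 (Gm10925), mt-Co3 over 783 (Gm28437) and mt-Nd4l over 294 (Gm10222) with 0 mismatches, and mt-Nd3 over 345 with 1 (Gm28438). The first 75 bases of mt-Co2 and of its copy are shown to make the identity plain, 75 being the number of sequencing cycles:
mt-Co2: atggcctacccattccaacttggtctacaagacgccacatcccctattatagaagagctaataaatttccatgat
Gm28661: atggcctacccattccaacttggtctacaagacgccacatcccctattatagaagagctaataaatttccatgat
Of all stretches of 75 bases in mt-Co2, mt-Co3, mt-Atp6, mt-Nd3 and mt-Nd4l, 97.8 to 99.9% also occurred in another annotated gene, so that a read from them has several places of origin in the genome. The handling of such reads is not given in the sources used here, and the near-zero values are not evidence that these mRNAs were missing.

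The same measure bears on the genes that did have reads. It was 61.5% for mt-Nd4, whose 5′ part has a copy in the chromosome 1 block, and 39.8% for mt-Co1. Of the mt-Co1 stretches, 405 also occurred in Gm29216, which is not among the genes listed in the libraries, and 220 in Gm13340. Gm13340 was 97.6% identical to mt-Co1 over 1545 bases and had 418 reads. Reads of Gm29216 are not known. The levels of mt-Nd4 and mt-Co1 are therefore uncertain. The gene mt-Atp8 shared no stretch with another annotated gene (closest copy 81.4% identical), yet had 0 reads. It lies between mt-Co2 and mt-Atp6 and overlaps the latter. The annotated copies of mt-Co2 and mt-Atp6 leave a gap between them in the chromosome 1 block (24614651 to 24614885). Sequence outside annotated genes was not searched, so a copy of mt-Atp8 in that gap was not looked for. Among the 92 nuclear genes 52 shared no stretch and 1 shared over 50%, Ndufaf2 (63.2%). Atp5g2 (35.8%) and Atp5o (34.2%) came next, and the levels of these genes are uncertain. The stretches came from all annotated transcripts of a gene and were matched on both strands. The 1881 shared stretches of Ndufaf2 all occurred in a long noncoding RNA gene, B230220B15Rik. For Atp5o, 283 occurred in the antisense gene Gm15976 and 191 in the antisense gene D430001F17Rik. Copies elsewhere and overlapping genes were thus not told apart. Atp5l shared 6.16% of its stretches, many of them with pseudogenes. It had 38 reads in Myc/NrasG12V and 105 in Myc/Akt1, and its low level is uncertain too.

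**Figure D2:**
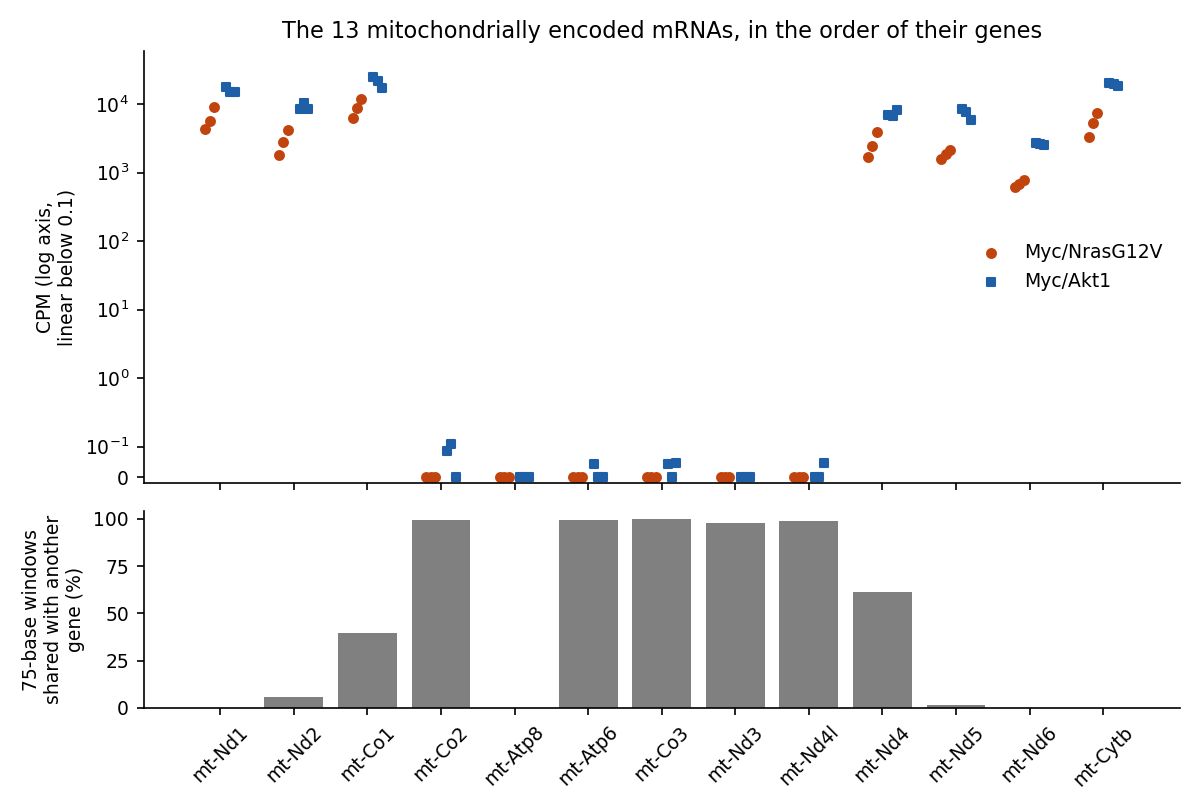
Upper panel, CPM of the 13 mitochondrial mRNA genes in each library (log axis, linear below 0.1; orange circles, Myc/NrasG12V; blue squares, Myc/Akt1; replicates 1 to 3 from left to right). Lower panel, share of the 75-base stretches of each gene that also occur in another annotated gene, in percent. For the 7 genes with reads the groups do not overlap, and 5 of the 6 genes near 0 share 97.8 to 99.9% of their stretches.

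Complex I, which takes electrons from NADH, was lower in Myc/NrasG12V in its catalytic core and its accessory shell alike. Of its 7 nuclear core subunits 6 were lower (median -1.01), and of its 29 accessory subunits 23 (median -0.95). The core subunit of lowest adjusted p was Ndufs1, which holds iron-sulphur clusters on the path from NADH to ubiquinone. It was at 65.8, 69.1 and 56.3 CPM in Myc/NrasG12V and 270.1, 262 and 175 CPM in Myc/Akt1 (3.70-fold higher in Myc/Akt1, log2 difference -1.85, SE 0.21, limma adjusted p = 3.48e-04). The groups lay well apart, with replicate 3 the lowest of each.

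The flavoprotein Ndufv1, which binds NADH, was at 79.7, 86.5 and 88.1 CPM against 213, 219.6 and 189 CPM (2.45-fold, -1.28, limma adjusted p = 4.35e-04). The accessory subunit Ndufb3 was at 16.0, 18.3 and 19.97 CPM against 60.6, 49.5 and 57.4 CPM (3.08-fold, -1.57, limma adjusted p = 3.5e-04). Both held in each alternative. At the other end Ndufa7, an accessory subunit, was at 62.9, 61.2 and 94.2 CPM against 51.4, 57.3 and 96.6 CPM, with overlapping groups and a limma adjusted p of 0.766 (log2 difference 0.12, 95% interval -0.51 to 0.74). The 6 other complex I genes not called, Ndufa2, Ndufa3, Ndufa6, Ndufa13, Ndufb7 and Ndufs7, had negative estimates, from -0.20 to -0.76.

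Complex II, or succinate dehydrogenase, is both a respiratory complex and an enzyme of the citric acid cycle, and all 4 of its subunits were lower in Myc/NrasG12V in each alternative. The flavoprotein Sdha, which oxidises succinate, was at 194, 206 and 139 CPM in Myc/NrasG12V and 590.1, 599.96 and 473 CPM in Myc/Akt1 (3.09-fold higher in Myc/Akt1, log2 difference -1.63, limma adjusted p = 6.07e-04). The membrane anchor Sdhd was at 139, 147 and 135 CPM against 355, 319 and 302 CPM (2.32-fold, -1.21, limma adjusted p = 6.27e-04). The groups did not overlap for either gene. The iron-sulphur subunit Sdhb was 2.28-fold (-1.18, limma adjusted p = 9.21e-04) and the other anchor, Sdhc, 2.07-fold higher in Myc/Akt1 (-1.05, limma adjusted p = 0.00127).

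In complex III, which carries electrons from ubiquinol to cytochrome c, the 4 genes Uqcrc1, Uqcrc2, Uqcrb and Uqcrfs1 differed 2.50- to 3.08-fold, and the smaller subunits less. The core protein Uqcrc1 was at 157, 152 and 142 CPM in Myc/NrasG12V and 380.3, 383 and 401 CPM in Myc/Akt1 (2.58-fold higher in Myc/Akt1, log2 difference -1.36, limma adjusted p = 3.44e-04). Uqcrb, which binds ubiquinone, was at 36.0, 40.5 and 42.0 CPM against 113, 102 and 149.9 CPM (3.08-fold, -1.58, limma adjusted p = 4.46e-04). The Rieske iron-sulphur protein Uqcrfs1 was at 117, 132 and 129 CPM against 354, 298 and 412 CPM (2.82-fold, -1.48, limma adjusted p = 4.53e-04). All 3 kept the groups apart and held in each alternative.

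Uqcrq, a small subunit, showed no such order: 87.1, 87.9 and 140.0 CPM against 69.4, 89.2 and 305 CPM (log2 difference -0.27, 95% interval -1.39 to 0.85, limma adjusted p = 0.694). The ratio of its means, 1.47-fold higher in Myc/Akt1, came from Myc/Akt1 replicate 3 and was 0.755 without it. Uqcrh, which binds cytochrome c1, did not pass either (limma adjusted p = 0.311), and the calls of Uqcr10 and Uqcr11 ended in 13 and 10 of the 17 alternatives.

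Complex IV, cytochrome c oxidase, passes the electrons to oxygen, and several of its subunits exist as isoforms. The 3 of lowest adjusted p were Cox7a2, the liver form of subunit VIIa, Cox7c and Ndufa4. Cox7a2 was at 74.9, 88.1 and 94.6 CPM in Myc/NrasG12V and 195, 173 and 221 CPM in Myc/Akt1 (2.29-fold higher in Myc/Akt1, log2 difference -1.18, limma adjusted p = 0.00109). Cox7c was at 30.9, 33.2 and 44.4 CPM against 89.1, 86.8 and 128 CPM (2.80-fold, -1.46, limma adjusted p = 0.00126). Ndufa4 was at 138, 149 and 151 CPM against 309, 279.5 and 416 CPM (2.29-fold, -1.17, limma adjusted p = 0.00182). The groups stood apart for all 3, in each alternative.

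One gene named with complex IV went the other way. Cox7a2l encodes a relative of subunit VIIa, known in some mouse strains to join complexes III and IV into supercomplexes. Neither its protein nor supercomplexes were measured in these tumours. It was at 91.7, 96.2 and 116 CPM in Myc/NrasG12V and 75.9, 72.7 and 84.1 CPM in Myc/Akt1, so that every Myc/NrasG12V library lay above every Myc/Akt1 library. Its log2 difference of 0.38 (SE 0.16, 95% interval 0.01 to 0.75) did not reach the threshold (limma adjusted p = 0.0963). This was the gene called higher with other scalings. Limma gave an adjusted p of 0.00856 with TMM factors (0.69), of 0.00823 for the median-of-ratios factors (0.69) and of 0.00724 for upper-quartile factors (0.74), while edgeR gave an adjusted p of 0.0119 and DESeq2 4.38e-04 (0.70 by both). Relative to other genes, Cox7a2l was thus higher in Myc/NrasG12V while Cox7a2 was lower under every scaling.

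**Figure D3:**
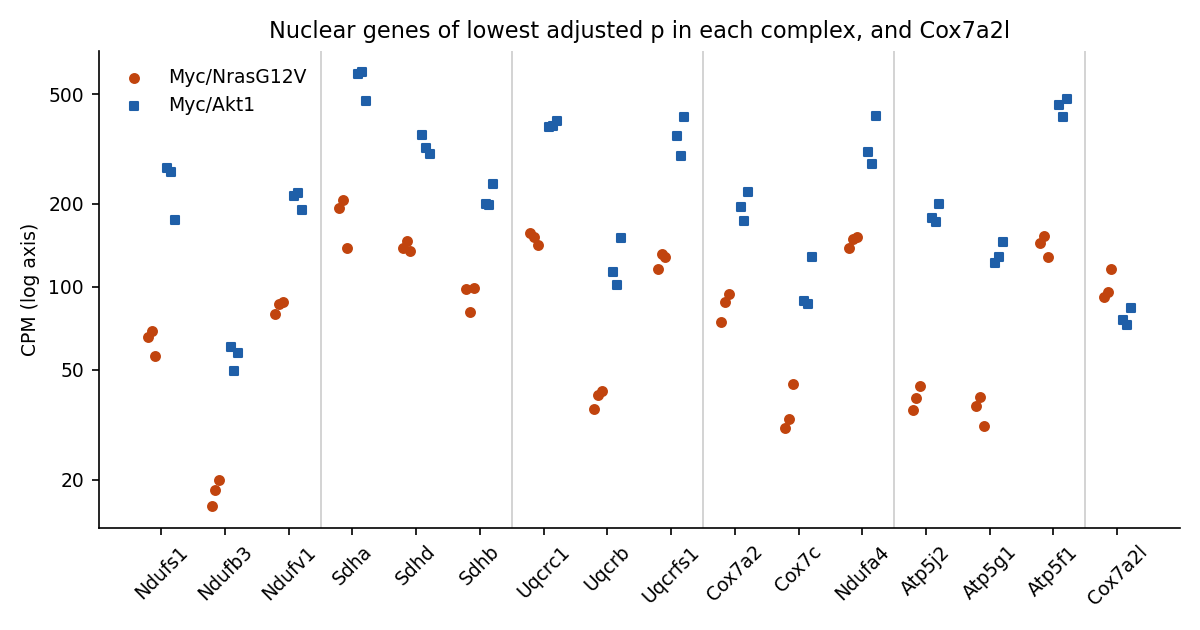
CPM in each library (log axis) of the 3 nuclear genes of lowest adjusted p in complexes I, II, III, IV and V, separated by grey lines, and of Cox7a2l at the far right (orange circles, Myc/NrasG12V; blue squares, Myc/Akt1; replicates 1 to 3 from left to right). The groups do not overlap in any of the 16 genes, and Cox7a2l, at 91.7 to 116 against 72.7 to 84.1 CPM, is the one in which Myc/NrasG12V lies above.

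The isoforms typical of other tissues were near 0, and the widely expressed or liver isoforms carried nearly all reads. Per kilobase of exons, Cox4i1 was at 181 and 312 CPM in Myc/NrasG12V and Myc/Akt1, against 0.515 and 0.784 for Cox4i2, the isoform of lung and hypoxic cells. Cox6a1, the liver form, was at 120 and 248 CPM per kilobase, against 0.191 and 0.276 for the heart and muscle form Cox6a2. Cox6b1 was at 162 and 331 CPM per kilobase, against 0.698 and 0.433 for the testis form Cox6b2.

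The muscle form Cox7a1 stood at 1.03 and 3.07 CPM per kilobase, against 91.0 and 208 for Cox7a2. The muscle form Cox8b had 1 read over all libraries, and the testis forms Cox7b2 and Cox8c had 0, which allows up to 0.168 CPM in the shallowest library. The order within each isoform pair was therefore the same in both groups.

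The other abundant isoforms were lower in Myc/NrasG12V by 1.72- to 3.20-fold. Cox4i1, a core nuclear subunit that regulates the enzyme, was at 251, 252 and 339 CPM against 441, 469 and 539.5 CPM (1.72-fold higher in Myc/Akt1, log2 difference -0.79, limma adjusted p = 0.012), a call that ended with each of the 3 scaling factors, by edgeR, and without Myc/NrasG12V replicate 1 or 2. Cox6a1 differed 2.07-fold (-0.96, limma adjusted p = 0.0215) and Cox7b 2.17-fold (-1.06, limma adjusted p = 0.0148), and their calls too ended with each scaling factor and without Myc/NrasG12V replicate 1, for Cox6a1 also without Myc/NrasG12V replicate 2. Cox6b1 differed 2.04-fold (-0.995, limma adjusted p = 0.00489) and Cox8a 3.20-fold (-1.56, limma adjusted p = 0.00563), and both held in each alternative.

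Cox8a was at 39.6, 39.4 and 56.1 CPM in Myc/NrasG12V and 106, 97.9 and 229 CPM in Myc/Akt1, replicate 3 being the highest of each group. Cox7a1 passed at a low level (0.669, 0.643 and 0.336 against 1.70, 1.36 and 1.86 CPM, limma adjusted p = 0.0122) but not by edgeR or DESeq2. Cox4i2 (0.230 to 0.679 CPM, limma adjusted p = 0.363) and Cox6b2 (0.251 to 0.860 CPM, limma adjusted p = 0.259) did not pass. Ndufa4l2, a relative of Ndufa4 known as a hypoxia target, was at 1.19, 1.56 and 3.75 against 1.27, 1.36 and 1.45 CPM (log2 difference 0.34, limma adjusted p = 0.391). Its ratio of means, 1.59-fold higher in Myc/NrasG12V, was 1.01 without Myc/NrasG12V replicate 3.

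Complex V held the nuclear gene with the largest difference. Atp5j2, the f subunit in the membrane part, was at 35.8, 39.5 and 43.6 CPM in Myc/NrasG12V and 178, 172 and 200.3 CPM in Myc/Akt1. It was 4.63-fold higher in Myc/Akt1 (log2 difference -2.18, SE 0.16, limma adjusted p = 6.16e-05), and each group was tight beside the gap between them. Of the 10 membrane and stalk genes 9 were lower (median -1.19), and of the 5 genes of the catalytic F1 head 4 (median -1.35).

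Atp5f1, the b subunit of the stalk, was at 144, 153 and 128 CPM against 457, 413 and 481 CPM (3.18-fold, -1.66, limma adjusted p = 1.92e-04). The catalytic subunit Atp5b was among the most abundant, at 187 and 547 CPM per kilobase, close to Atp5a1 at 194 and 519 (both named after their values were seen). Its CPM were 817, 839.8 and 714 against 2373, 2291 and 2284 (2.93-fold, -1.55, limma adjusted p = 9.19e-04). Atp5e, the small epsilon subunit of the head, had the highest adjusted p of the complex (1.44-fold, log2 difference -0.49, 95% interval -1.08 to 0.10, limma adjusted p = 0.167), and the groups overlapped.

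The c subunit, which forms the rotating ring, is encoded by 3 genes with the same mature protein. They differed in level and in difference. Atp5g3 was at 120 and 274 CPM per kilobase, Atp5g1 at 7.34 and 26.9, and Atp5g2 at 6.49 and 11.6. Atp5g1, known as the copy whose expression varies most with mitochondrial demand, was at 37.1, 39.8 and 31.3 CPM against 122, 129 and 145 CPM (3.66-fold, log2 difference -1.85, SE 0.16, limma adjusted p = 1.47e-04). Atp5g3 differed 2.29-fold (-1.18, limma adjusted p = 0.00374). Atp5g2 differed 1.79-fold (-0.79, limma adjusted p = 0.0112), and its call ended with each of the 3 scaling factors and by edgeR and DESeq2. Of its 75-base stretches 35.8% also occurred in another annotated gene, so its level is uncertain. The differences were not tested against each other.

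Of the assembly factors named with complex I, Ndufaf1, which helps to build its membrane arm, had the lowest adjusted p and was named after its values were seen. It was at 13.7, 17.1 and 13.6 CPM in Myc/NrasG12V and 61.0, 48.8 and 43.1 CPM in Myc/Akt1 (3.44-fold higher in Myc/Akt1, log2 difference -1.71, limma adjusted p = 4.16e-04). Ndufaf3, Atp5s and Atp5sl did not pass (limma adjusted p of 0.34, 0.103 and 0.681).

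Summed over genes, nuclear subunits took 0.705 ± 0.0410% of reads in Myc/NrasG12V and 1.61 ± 0.155% in Myc/Akt1 (SD, n = 3 each), a 2.28-fold difference. The group means in Myc/NrasG12V and Myc/Akt1 were 0.183 and 0.363% for complex I, 0.0501 and 0.127% for complex II, 0.0944 and 0.196% for complex III, 0.117 and 0.237% for complex IV and 0.261 and 0.687% for complex V. Libraries of the groups did not overlap for any of these sums. Mitochondrial reads per nuclear subunit read were 2.95, 3.94 and 5.25 in Myc/NrasG12V and 5.70, 5.69 and 4.22 in Myc/Akt1, so that the balance of the genomes overlapped between the groups. The mitochondrial reads in this ratio came almost only from 7 of the 13 genes. Within complex IV, mt-Co1 reads per Cox4i1 read were 25.3, 34.7 and 34.6 against 55.7, 46.2 and 32.0, which overlapped as well.

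**Figure D4:**
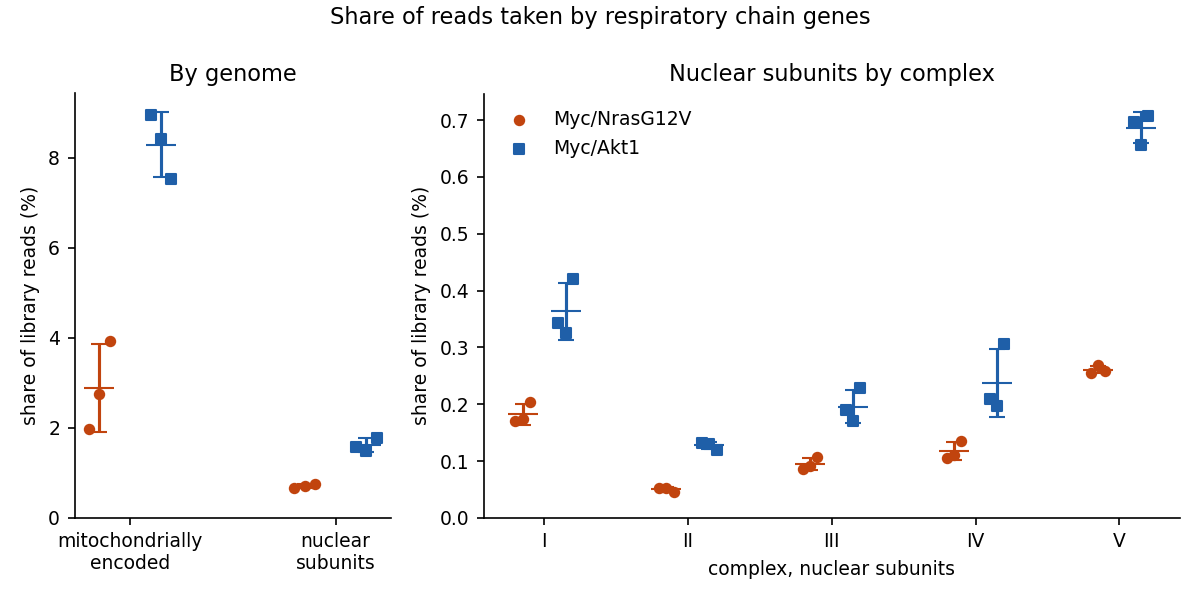
Share of each library's reads, in percent, taken by the mitochondrial mRNA genes and the nuclear subunits (left) and by the nuclear subunits of each complex (right); points are libraries (replicates 1 to 3 from left to right), horizontal bars means and error bars 1 SD (n = 3). The mitochondrial share is 1.97 to 3.93% in Myc/NrasG12V (orange circles) and 7.53 to 8.94% in Myc/Akt1 (blue squares), and in none of the sums do the groups overlap. Nearly all reads of the mitochondrial share come from 7 of the 13 genes.

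The third library of each group differed from its partners along coding length, more so in Myc/Akt1, which matters here because most of these proteins are small. Of the 88 nuclear genes tested, 69 (78.4%) were highest of their group in Myc/Akt1 replicate 3, against 37.3% of all genes tested. For the 62 with a coding length under 600 bases the median log2 excess of that library over the mean of the other two was 0.48 (all such genes 0.18), and for the 26 with 600 bases or more 0.07 (all such genes -0.06). In Myc/NrasG12V replicate 3 was highest for 63 of the 88 (71.6%, against 51.7% of all genes) and for 7 of 7 mitochondrial genes. Its median excess was 0.30 for the shorter nuclear genes (all such genes 0.23) and 0.07 for the longer ones (all such genes 0.11). Over all genes it stayed at 0.11 in each length class from 600 bases up. The excess of Myc/Akt1 replicate 3 fell from 0.27 under 300 bases to -0.18 from 2400 bases up. Between the groups, 47 of the 62 shorter genes were lower in Myc/NrasG12V (median -0.96) and 23 of the 26 longer ones (median -1.29). Without Myc/Akt1 replicate 3 the count over all 95 genes was 65, and without Myc/NrasG12V replicate 3 it was 78. The part of RNA quality in this pattern was not tested.

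**Figure D5:**
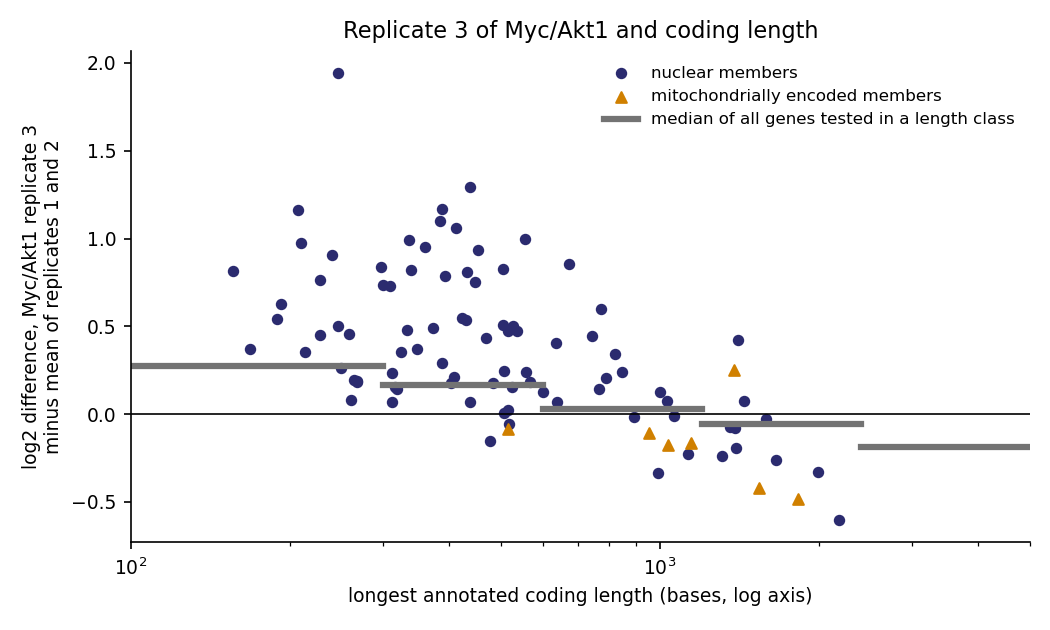
Log2 difference of Myc/Akt1 replicate 3 from the mean of replicates 1 and 2 (log2(CPM + 1) scale) against the longest annotated coding length in bases (log axis), for nuclear (circles) and mitochondrial (triangles) respiratory chain genes; grey bars are medians of all genes tested in 5 length classes. Nuclear genes under 600 bases lie mostly above 0 (median 0.48), and those of 600 bases or more scatter around it (median 0.07).

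Promoters of respiratory chain genes are known for sites of NRF1, ETS factors of the GABP type and YY1, and the data show many of these genes moving together, so their sequences were searched. RefSeq windows of 300 bases (250 before to 50 after the start, GRCm38.p6, 1 per gene) were found for 76 of the 92 nuclear genes. The NRF1 motif (GCGC, any base, T, then GCGC), searched on both strands, occurred in 18 of the 76 (23.7%), against 4.78% of all 27025 windows and 9.79% of the windows of genes tested. The motif CCGGAAG of ETS factors occurred in 21.1% (all windows 9.12%, genes tested 17.0%) and AAGATGGC of YY1 in 13.2% (2.88 and 4.47%). CACGTG, the E box that Myc can bind, occurred in 9.21% (7.24 and 10.1%). No motif searched contained another, and a match is a description of letters, not a bound site.

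Of the 18 genes with the NRF1 motif 17 were lower in Myc/NrasG12V, with a median log2 difference over the 18 of -1.18, and the exception, Ndufa6, was negative without passing. Of the 56 tested genes whose window lacks it 43 were lower (median -0.997). Over all genes tested 35.1% were lower with the motif (median -0.37) and 30.1% without (median -0.26). The other motifs did not show this order among the chain genes: 75.0% with the ETS motif and 82.8% without it were lower, 70.0% and 82.8% for YY1, and 57.1% and 83.6% for the E box, which 7 of the genes hold. None of these splits was tested. The 4 genes of lowest adjusted p with the motif in the 120 bases before the start are shown with Cox7a2l, which has none of the 4 motifs in its window. Genes called lower, such as Cox7a2, Cox7c, Ndufa4 and Atp5b, also have none of them. Each stretch runs 5′ to 3′ on the gene's strand up to the start, and capitals mark NRF1 matches, except the ETS match CTTCCGG of Sdhd. The stretches are Atp5k chr5:108434400-108434519, Sdha chr13:74350241-74350360, Sdhd chr9:50603850-50603969, Ndufs5 chr4:123718187-123718306 and Cox7a2l chr17:83514334-83514453, all on the minus strand:
Atp5k: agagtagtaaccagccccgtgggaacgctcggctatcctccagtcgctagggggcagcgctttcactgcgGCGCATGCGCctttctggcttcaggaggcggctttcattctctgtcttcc
Sdha: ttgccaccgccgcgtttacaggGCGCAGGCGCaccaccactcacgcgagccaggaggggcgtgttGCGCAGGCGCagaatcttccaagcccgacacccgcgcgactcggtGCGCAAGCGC
Sdhd: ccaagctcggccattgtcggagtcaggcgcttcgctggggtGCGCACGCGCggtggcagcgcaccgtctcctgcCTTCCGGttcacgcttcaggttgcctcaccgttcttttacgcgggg
Ndufs5: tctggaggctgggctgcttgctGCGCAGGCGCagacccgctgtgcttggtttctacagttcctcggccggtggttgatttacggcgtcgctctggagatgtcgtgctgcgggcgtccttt
Cox7a2l: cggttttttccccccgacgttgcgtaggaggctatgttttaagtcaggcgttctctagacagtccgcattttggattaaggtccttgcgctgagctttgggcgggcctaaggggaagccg
Sdha thus holds 3 NRF1 matches in this stretch, and Atp5k, a subunit of the membrane part of complex V named here for its promoter, 1 that reads the same on both strands. Atp5k was 2.97-fold higher in Myc/Akt1 (log2 difference -1.54, limma adjusted p = 4.69e-04), and Ndufs5, an accessory subunit of complex I, 2.78-fold (-1.35, limma adjusted p = 0.00134).

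Genes that build, express and feed the chain were counted as 5 lists, beside the 29.5% of all genes called lower without scaling factors and the 17.9% with TMM factors. Of 45 further assembly factors, 42 were tested and 26 (61.9%) were lower in Myc/NrasG12V and 0 higher (median -0.82, relative to all genes -0.56), with 18 lower under TMM factors (-0.52 relative to all genes). Acad9, a complex I assembly factor related to fatty acid dehydrogenases, was at 24.2, 28.1 and 19.1 CPM in Myc/NrasG12V and 139, 128 and 83.3 CPM in Myc/Akt1 (4.90-fold higher in Myc/Akt1, log2 difference -2.23, limma adjusted p = 2.85e-04). Tmem70, needed to assemble complexes I and V, differed 2.75-fold (-1.44, limma adjusted p = 6.31e-04). The groups stood apart for both genes.

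Cytochrome c, genes that make or handle ubiquinone (Pdss and Coq) and enzymes that supply electrons were counted as a single list. It was lower by the largest median of these lists. Of 21 genes 20 were tested and 17 (85.0%) were lower and 0 higher (median -1.39, relative to all genes -1.13), 12 under TMM factors (-1.10 relative to all genes). Etfdh, which hands electrons from fatty acid oxidation to ubiquinone, was at 49.4, 62.0 and 43.5 CPM in Myc/NrasG12V and 425, 400.4 and 311 CPM in Myc/Akt1 (7.33-fold, log2 difference -2.85, limma adjusted p = 5.39e-05). Cytochrome c, Cycs, was at 11.9, 13.6 and 14.8 CPM against 77.0, 57.9 and 55.2 CPM (4.72-fold, -2.15, limma adjusted p = 1.52e-04). The estimate of Etfdh was larger than that of any of the 95 chain genes, and that of Cycs larger than all but Atp5j2. The testis form of cytochrome c, Cyct, had 1 read.

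Of 13 genes of ATP export and coupling 10 were tested and 7 (70.0%) were lower (median -1.07, relative to all genes -0.81), 6 under TMM factors (-0.76 relative to all genes). The outer membrane channels Vdac1 and Vdac3 were 2.58- and 2.65-fold higher in Myc/Akt1 (log2 differences -1.36 and -1.37, limma adjusted p = 3.84e-04 and 5.49e-04). The uncoupling protein family member Ucp2 was at 136, 112 and 44.6 CPM against 298, 239.5 and 272 CPM (-1.60, limma adjusted p = 0.00927; not called by edgeR). The ATP synthase inhibitor Atpif1 differed 1.59-fold (-0.66, limma adjusted p = 0.0231), a call that ended with each scaling factor, by edgeR and DESeq2, and without any one of Myc/NrasG12V replicates 1 and 2 and Myc/Akt1 replicates 1 and 3.

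Of 30 genes of mitochondrial DNA maintenance, transcription and RNA handling, all tested, 14 (46.7%) were lower and 0 higher (median -0.66, relative to all genes -0.40, and -0.37 with TMM factors), with 11 lower and 2 higher, Fastk and Polg, under TMM factors. Tfam, which packages mitochondrial DNA and starts its transcription, was at 34.8, 34.9 and 36.97 CPM in Myc/NrasG12V and 97.3, 84.9 and 65.9 CPM in Myc/Akt1 (2.33-fold, log2 difference -1.18, limma adjusted p = 0.00151), in each alternative. The nuclease Rexo2 differed 2.93-fold (-1.53, limma adjusted p = 3.6e-04) and the helicase Supv3l1, which helps to degrade mitochondrial RNA, 2.67-fold (-1.36, limma adjusted p = 6.48e-04).

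The mitochondrial RNA polymerase Polrmt was at 20.5, 19.6 and 32.8 against 28.1, 32.0 and 36.0 CPM (log2 difference -0.42, limma adjusted p = 0.187) and passed without Myc/NrasG12V replicate 3 and in no other alternative. Lrpprc, which stabilises mitochondrial mRNAs, was at 163, 169 and 156 CPM against 328, 358 and 181 CPM (-0.77, limma adjusted p = 0.0425, a call that ended in 12 of 17 alternatives, among them the omission of any library but Myc/Akt1 replicate 3). Its partner Slirp did not pass (-0.46, limma adjusted p = 0.129). The ribosomal RNAs, which poly(A) capture recovers poorly, gave 284, 318 and 167 against 208, 159 and 252 CPM for mt-Rnr1 (0.28, limma adjusted p = 0.449) and 454, 641 and 338 against 1206, 2107 and 647 CPM for mt-Rnr2 (-1.35, limma adjusted p = 0.0326). The mt-Rnr2 call ended in 9 of 17 alternatives, among them TMM factors and the omission of Myc/Akt1 replicate 1 or 2 or Myc/NrasG12V replicate 1 or 3.

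Without scaling factors, the nuclear regulators of mitochondrial genes were called lower about as often as genes in general. Of 14, all tested, 4 were lower (Gabpa, Ppargc1b, Esrrg and Nrip1), which is 28.6% against 29.5% of all genes, and 0 higher. Their median was -0.31 (relative to all genes -0.05, and -0.02 with TMM factors). With TMM factors 4 of the 14 were lower, against 17.9% of all genes, and 1, Pprc1, higher, against 16.2%. Gabpa, the DNA-binding subunit of the ETS factor GABP, was at 31.9, 34.1 and 35.0 CPM in Myc/NrasG12V and 69.5, 76.6 and 66.0 CPM in Myc/Akt1 (2.10-fold higher in Myc/Akt1, log2 difference -1.05, limma adjusted p = 0.00121). The coactivator Ppargc1b was at 2.58, 2.16 and 2.80 CPM against 5.90, 4.92 and 6.68 CPM (2.32-fold, -0.96, limma adjusted p = 0.00883). Both held in each alternative.

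Its better known relative Ppargc1a was at 17.8, 24.98 and 25.7 CPM against 20.7, 18.8 and 26.2 CPM (log2 difference 0.05, 95% interval -0.45 to 0.55, limma adjusted p = 0.869). Nrf1, the factor of the promoter motif, was at 11.8, 12.9 and 18.1 CPM against 13.02, 15.2 and 14.1 CPM (-0.01, 95% interval -0.51 to 0.50, limma adjusted p = 0.986). Esrra, the estrogen-related receptor that works with the coactivators, was at 42.5, 31.0 and 52.0 CPM against 25.2, 31.4 and 40.7 CPM (0.35, limma adjusted p = 0.288; called higher in Myc/NrasG12V with upper-quartile factors and by DESeq2). The groups overlapped for these 3 genes.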

How the data were processed

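Per the labels' protocols, mRNA of the 6 tumour samples was captured by poly(A) and read from 1 end in 75 cycles with a strand-preserving kit. The submitters' processing notes name GRCm38 as the build, with edgeR 3.22.5, Subread 1.6.3 and STAR 2.6.1c; annotation release, strand setting and treatment of multi-mapped reads are not given in the sources used here. The deposited values are CPM, although the column is named reads. Each was a whole multiple of 1 read within 0.01 read (100% of values), so whole reads were recovered.

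A gene entered the test with at least 0.457 CPM in 3 libraries and a total of 15 reads (filterByExpr on the recovered reads). Groups were compared with limma 3.58.1 (R 4.3.3; two-sided, trended empirical Bayes) on log2(CPM + 1), with Benjamini-Hochberg adjustment over all genes. Alternatives used other scaling factors, a total without mitochondrial and Alb reads, pseudocounts of 0.1 and 5, other filters, edgeR 4.0.16, DESeq2 1.42.0, a replicate block and the omission of each library. On simulated counts of 14365 genes a change of 1.5-fold was found in 29.9% of 67 genes, of 2-fold in 100% of 67 and of 4-fold in 100% of 66, and 8 calls (4.97%) were false. The simulation gave every gene a dispersion of 0.02 and held no shift over all genes. It changed few genes, all with a mean of at least 5 CPM. Real genes can vary more between libraries, as mt-Co1 did, which was not called at 2.36-fold. These rates therefore do not carry over to the real libraries. Coordinates and exon lengths came from GENCODE M21, which matched 37607 of 39179 genes (96.0%), and copies were found with blastn.

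Named genes were all mitochondrial ones, per complex the 3 nuclear genes of lowest and the 1 of highest adjusted p, the isoform sets, 2 per list and 14 fixed genes. Other genes named were singled out after their values were seen. Members, lists and rules were chosen with earlier results of these data known.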

Additional observations from a re-analysis of the deposited data

How the results depend on the processing

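Of the 76 respiratory chain genes called lower in Myc/NrasG12V, 51 passed in each of the 17 alternatives, 54 with each of the 3 scaling factors, 56 without each library in turn, and 57 by both edgeR and DESeq2; 0 changed sign. Over all genes tested, 2565 were lower and 2331 higher with TMM factors, 2515 and 2366 for median-of-ratios factors, 2343 and 2544 for upper-quartile factors, 2512 and 2381 by edgeR, and 2791 and 2752 by DESeq2. Under each of these 5 settings 1 respiratory chain gene, the nuclear Cox7a2l, was called higher. The count of genes lower was 58, 57, 54, 57 and 61 in the same order. Without 1 library it ranged from 56 (Myc/NrasG12V replicate 1 left out) to 78 (Myc/NrasG12V replicate 3 left out) over all, from 54 to 71 for nuclear genes and from 2 to 7 for mitochondrial genes, 2 without Myc/NrasG12V replicate 1 and 3 without replicate 2. With no filter on low values 2 mitochondrial genes were called; the cause was not tested. With the replicate number as a block 76 genes were lower, 71 nuclear and 5 mitochondrial. Same-numbered libraries correlated at -0.08, 0.11 and 0.08 in their deviations from the group means, so the numbers were not taken to pair them. Depth limited genes of few reads, such as Cox6a2, Cox8b and Cyct, for which no difference was detectable.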
